A study of Mus musculus with 7 samples.

Results

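The secondary granule genes examined here were Camp, Ngp, Ltf, Lcn2, Chil3, Cd177, Hp, Pglyrp1 and Anxa1, 9 of the 28719 genes in the count tables of the series. They were chosen by name, and a row for each was found in all 7 libraries. Neutrophils carry their antimicrobial proteins in granules that are filled in successive stages of maturation in the bone marrow. Secondary (specific) granules are filled at the myelocyte and metamyelocyte stages, and transcription of most of their cargo genes ends before the cell leaves the marrow, while some genes, of which Lcn2 is the best known, can be transcribed again by mature cells exposed to inflammatory cytokines. The 9 genes were followed in neutrophils of blood, joint, lung and peritoneum in 3 models of sterile inflammation.

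Neutrophils of male C57BL/6J mice were sorted as live CD11b+ Ly6G+ cells and captured in droplets with unique molecular identifiers (UMIs). The inflammation library held 5 conditions marked by hashtag oligomers, each a pool of cells from 3 mice. Healthy blood came from untreated mice, whose age in this library is not given in the sources used here, and K/BxN blood and K/BxN joint from mice aged 8 weeks on day 0, given pooled serum of arthritic K/BxN mice intraperitoneally on days 0 and 2 and harvested on day 7, with the blood taken from the heart and the cells of the ankle joint flushed out. IL-1β lung was airway lavage taken 3 h after 25 ng of IL-1β was given intranasally under ketamine and xylazine anaesthesia, and IL-1β peritoneum was peritoneal lavage taken 3 h after 25 ng given intraperitoneally, both in mice aged 8 weeks. The reference libraries were untreated blood, bone marrow and spleen, 1 of each in run 1 (mice of 6 weeks) and in run 2 (mice of 8 weeks), each pooled from 3 mice, so that age and run cannot be told apart.

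After filters, 506 cells of healthy blood, 801 of K/BxN blood, 2791 of K/BxN joint, 367 of IL-1β lung and 287 of IL-1β peritoneum remained, with a median of 2531 UMIs per cell in healthy blood and of 3508 to 3780 in the other conditions. Markers of neutrophils other than the 9 genes were seen in every condition (15 of 15 listed genes). The list of 8 NK cell markers summed to 0 to 3 UMIs in each condition, with Ncr1 at 0, and of the 7 eosinophil, basophil and mast cell markers Ccr3 alone was seen (3 to 19 UMIs), with Epx and Prg2 at 0. The 9 B cell markers summed to 210 CPM (UMI counts scaled to a common library total) in healthy blood, 126 in K/BxN blood, 50.9 in joint, 23.6 in lung and 28.7 in peritoneum, mostly from Ighm (234 of the 236 UMIs in healthy blood), and Vpreb3 was at 0 in all 5 conditions. The list of monocyte and macrophage markers, some of which neutrophils also express, summed to 283 to 390 CPM in the 5 conditions. The part of these markers in the results was not tested. The reference libraries kept 1145 to 3412 neutrophil-like cells, with medians of 763 to 2559 UMIs. The study's text gives the cell numbers of lung and peritoneum in the reverse order, and the conditions were taken here as the deposited cell table names them. The airway secretory gene Scgb1a1 had 88 UMIs in IL-1β lung and 0 in IL-1β peritoneum. Each condition was 1 pool in 1 library, so no test between conditions was possible. Intervals are 95% intervals of counting error, and they leave out differences between mice. A gene was counted as higher or lower between conditions when its CPM differed at least 2-fold and the pair of conditions held at least 50 of its UMIs. Percentages of all genes called higher or lower between conditions were taken over the genes that met this UMI limit.

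The genes lie on 6 chromosomes of GRCm38. Camp (chr9:109847379-109849617), Ngp (chr9:110419747-110423012) and Ltf (chr9:111019271-111042767) lie near one another on chromosome 9. Lcn2 is at chr2:32384633-32388252, Chil3 at chr3:106147554-106167564, Cd177 at chr7:24743983-24760311, Pglyrp1 at chr7:18871331-18890459, Hp at chr8:109575128-109579172 and Anxa1 at chr19:20373428-20390944. C/EBP factors bind sites of the form TTGCNNAA and are known regulators of granule genes. On either strand of the 250 bases before the RefSeq start, these letters were found in 9.56% of 32851 promoters and in 4 of the 8 genes with an entry, namely Ngp (at 138 and at 11 bases before the start), Ltf (at 75), Lcn2 (at 216) and Anxa1 (at 143). Camp, Chil3, Cd177 and Pglyrp1 held no such letters in that window. The exon-free part of 3 promoters is shown, those of Ngp and Cd177, which were higher by CPM at both IL-1β sites, and that of Pglyrp1, which was lower by CPM in joint and lung. The sequences are from RefSeq on GRCm38.p6, 5′ to 3′ on the gene's own strand, with TTGCNNAA in capitals (the match of Ngp at 11 bases lies in an annotated exon and is not shown), for Ngp at chr9:110419558-110419746 (plus strand), Cd177 at chr7:24760312-24760561 (minus strand) and Pglyrp1 at chr7:18884440-18884679 (plus strand).
Ngp: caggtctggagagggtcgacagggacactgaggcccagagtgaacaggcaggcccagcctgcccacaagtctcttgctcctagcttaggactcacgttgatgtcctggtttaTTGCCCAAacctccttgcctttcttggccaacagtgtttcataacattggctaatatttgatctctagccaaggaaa
Cd177: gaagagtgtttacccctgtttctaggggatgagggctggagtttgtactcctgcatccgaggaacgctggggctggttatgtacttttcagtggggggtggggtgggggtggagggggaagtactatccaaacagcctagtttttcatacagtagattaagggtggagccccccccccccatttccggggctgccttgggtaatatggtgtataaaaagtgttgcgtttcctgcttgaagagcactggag
Pglyrp1: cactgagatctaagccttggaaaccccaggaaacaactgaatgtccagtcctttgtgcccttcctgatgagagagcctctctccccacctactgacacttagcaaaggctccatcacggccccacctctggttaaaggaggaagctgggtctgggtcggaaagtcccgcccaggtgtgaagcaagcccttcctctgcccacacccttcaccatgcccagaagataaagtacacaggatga

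In the reference libraries most of the genes were higher in bone marrow than in blood. Of the 9 genes, 7 were higher in bone marrow than in blood and none was lower, against 9.78% of all 7474 genes called higher and 10.2% lower (edgeR's quasi-likelihood test with the run as a block, 2 pools per tissue, adjusted p of 0.05 as threshold). Chil3, a chitinase-like lectin, had 595 and 96.1 CPM in the blood of runs 1 and 2 and 2835 and 2843 CPM in bone marrow, a log2 difference of 4.12 (SE 0.63, adjusted p = 0.0099 by edgeR). Ngp, a cathelicidin-like protein of neutrophil granules, had 7330 and 1377 CPM in blood and 38258 and 29980 CPM in bone marrow, a log2 difference of 4.04 (SE 0.64, adjusted p = 0.010 by edgeR). For both genes the marrow libraries lay above the blood libraries without overlap.

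The antimicrobial peptide precursor Camp (log2 difference 3.63, SE 0.68, adjusted p = 0.016 by edgeR) and the iron-binding protein lactoferrin, encoded by Ltf (3.73, SE 0.71, adjusted p = 0.017 by edgeR), were raised to a like extent in marrow. Smaller differences passed for Cd177, a surface protein of neutrophils (log2 difference 2.92, SE 0.59), for Lcn2, the siderophore-binding lipocalin (2.38, SE 0.48), and for Anxa1, annexin A1 (1.82, SE 0.40), with adjusted p of 0.019, 0.019 and 0.023 by edgeR. The haemoglobin scavenger Hp had 2969 and 3682 CPM in blood and 2051 and 2593 CPM in marrow and did not pass (log2 difference -0.09, SE 0.23, adjusted p = 0.81 by edgeR). Pglyrp1, a peptidoglycan recognition protein, did not pass either (0.96, SE 0.31, adjusted p = 0.071 by edgeR). The 7 calls were lost when either blood library, the block or the choice of neutrophils was left out.

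Spleen was close to bone marrow in run 1 and lay between marrow and blood in run 2. Camp had 41401 CPM in the spleen of run 1, beside 42937 in marrow and 13942 in blood, and 6796 CPM in the spleen of run 2, beside 27025 in marrow and 1228 in blood. The same split was seen for Ltf, at 7020 CPM in the spleen of run 1 and 1289 CPM in that of run 2. None of the 9 genes was called between spleen and blood by edgeR (7 at an unadjusted p under 0.05, 0 called by DESeq2), where 0% of all genes were called higher and 0.0134% lower. Between bone marrow and spleen edgeR also called none (2 at an unadjusted p under 0.05, 1 called by DESeq2, Cd177), where 0% of all genes were called higher and 1.4% lower.

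The healthy blood of the inflammation library was far below both other blood libraries for 4 of the genes. Camp had 6.23 CPM there against 13942 and 1228 CPM in the blood of runs 1 and 2. Ltf had 1.78 CPM against 2018 and 245 CPM, Ngp 17.8 CPM against 7330 and 1377 CPM, and Chil3 10.7 CPM against 595 and 96.1 CPM. Hp (2126 against 2969 and 3682 CPM), Pglyrp1 (1562 against 3496 and 2729 CPM) and Anxa1 (690 against 1422 and 1352 CPM) lay much closer. The libraries differed in reagent version by the study's methods, in run and in the mice, which cannot be told apart, and no comparison of an inflamed condition with the reference libraries was tested.

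Transcripts of the genes were also seen in other cells of the reference libraries. In the bone marrow of run 2, with every cell thinned to 500 UMIs, 74.9% of neutrophil-like cells and 40.1% of B-cell-like cells held a Camp UMI, and 81.9% and 43.4% held a Ngp UMI. For Lcn2 the shares were 83.6% and 15.7%. In the blood of run 2, Ltf was seen in 1.55% of neutrophil-like cells in 1.58% of B-cell-like cells (0.241% to 6.97%, 101 cells) and in 0.607% of erythroid cells (0.217% to 1.55%, 750 cells). Summed over cells, Ltf in that library was at 245 CPM in neutrophil-like cells, 26.9 in B-cell-like cells and 11.0 in erythroid cells. The inflammation library held 4852 cells of a granulocyte class among its 4856. The other 4 cells were too few, and held too few UMIs, to measure its background, which was not tested. These 4 cells held 544 to 7019 UMIs and, apart from Chil3 in a lung cell of a macrophage class, 0 UMIs of the 9 genes. Among them were 2 cells of IL-1β peritoneum, with 3721 and 3298 UMIs and 0 of Lcn2.

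**Figure D1:**
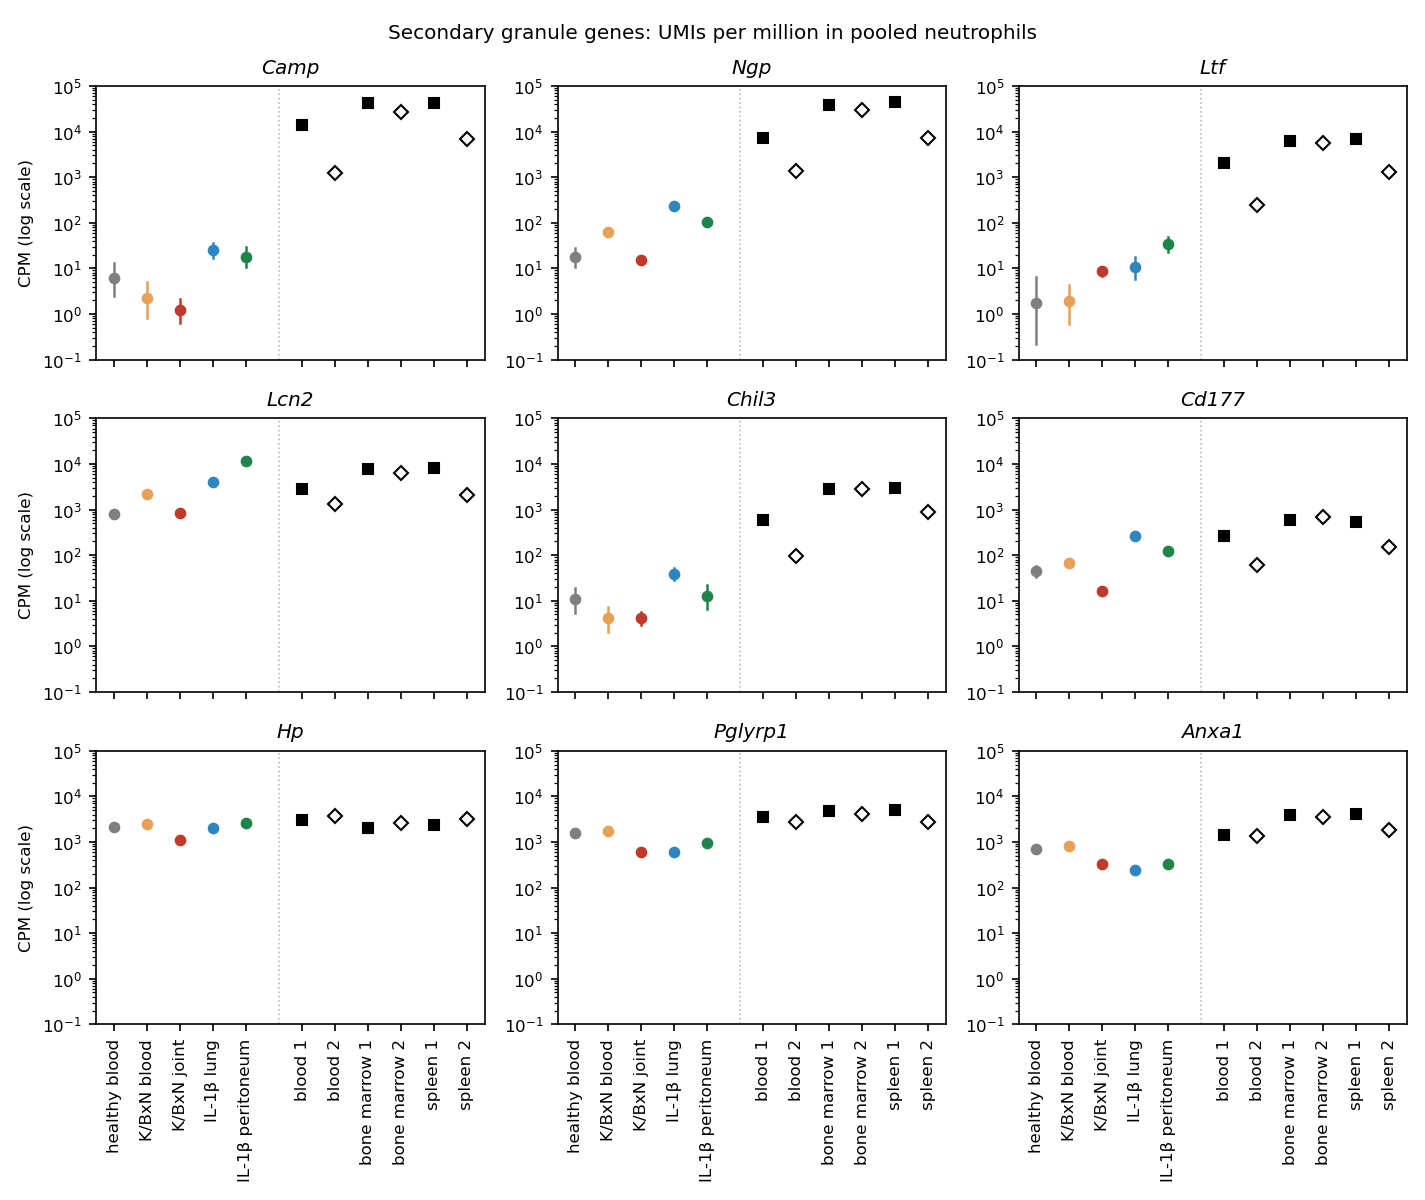
Level of each of the 9 genes, in CPM on a log axis, in the 5 conditions of the inflammation library (circles, with 95% Poisson intervals) and in the 6 reference libraries (filled squares run 1, open diamonds run 2). Camp, Ngp, Ltf and Chil3 are lower in every condition of the inflammation library than in every reference library, whereas Lcn2 in IL-1β peritoneum, at 11732 CPM, lies above all 6.

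In the inflammation library the 9 genes fell into those with few transcripts and those with many. Camp, Ngp, Ltf, Chil3 and Cd177 summed to 91 UMIs in healthy blood, 373 in K/BxN blood, 450 in K/BxN joint, 759 in IL-1β lung and 277 in IL-1β peritoneum. All 9 genes together held 5921 UMIs in healthy blood and 14925 in IL-1β peritoneum, and the rest of these belonged to Lcn2, Hp, Pglyrp1 and Anxa1. As a share of the UMIs of all genes, the 9 genes made up 0.527% in healthy blood, 0.738% in K/BxN blood, 0.293% in K/BxN joint, 0.757% in IL-1β lung and 1.59% in IL-1β peritoneum. They made up 10.9% and 8.30% of the UMIs in the bone marrow of runs 1 and 2 and 1.21% to 3.49% in the reference blood.

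CPM of all genes had a median log2 difference from healthy blood of -0.37 in K/BxN blood, -0.45 in K/BxN joint, -0.84 in IL-1β lung and -0.87 in IL-1β peritoneum. Differences of the 9 genes from healthy blood are therefore to be read against a general downward shift, and TMM factors, which remove most of that shift, are given where they change a count. Between joint and arthritic blood and between lung and peritoneum the median was within 0.02 of 0.

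Lcn2 was higher in arthritic blood and at both acute sites, and highest in the peritoneum. It had 814 CPM in healthy blood (914 UMIs), 2186 in K/BxN blood (5763 UMIs), 830 in K/BxN joint (8161 UMIs), 4109 in IL-1β lung (5393 UMIs) and 11732 in IL-1β peritoneum (11024 UMIs). The level was thus alike in healthy blood and joint and higher in the other conditions. Against healthy blood it was 14.4-fold higher in IL-1β peritoneum (13.5 to 15.4), 5.05-fold in IL-1β lung (4.71 to 5.42) and 2.69-fold in K/BxN blood (2.50 to 2.88), and the ratio in K/BxN joint was 1.02 (0.952 to 1.09). The order of levels was the same when each cell's own share of Lcn2 was averaged, with 15.7-fold in peritoneum and 4.90-fold in lung. With TMM factors the ratios to healthy blood were 27.3 in peritoneum, 9.46 in lung, 3.70 in K/BxN blood and 1.52 in joint.

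The higher level of Lcn2 was spread over many cells. With cells thinned to 1000 UMIs, 62.1% of healthy blood neutrophils held no Lcn2 UMI, against 37.8% in K/BxN blood, 67.4% in K/BxN joint, 28.9% in IL-1β lung and 14.0% in IL-1β peritoneum. Thinning left out shallower cells, 152 of 506 in healthy blood and 118 of 2791 in joint. In K/BxN blood, lung and peritoneum it left out 133 of 801, 81 of 367 and 56 of 287. At 500 UMIs no cell of these conditions was left out. A Lcn2 UMI was then seen in 21.2% of healthy blood cells, 44.5% of K/BxN blood, 22.4% of joint, 51.8% of lung and 77.5% of peritoneum. Cells with 20 or more Lcn2 UMIs per 1000 made up 20.2% of IL-1β peritoneum (15.3% to 26.1%) and 1.68% of IL-1β lung (0.570% to 4.03%), and none was seen in the other conditions. For K/BxN joint a count of 0 among 2673 cells allows a share of up to 0.112%. The richest 5% of cells held 24.2% of all Lcn2 UMIs in peritoneum and 46.4% in healthy blood, and 1 cell of the peritoneum held 264.

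**Figure D2:**
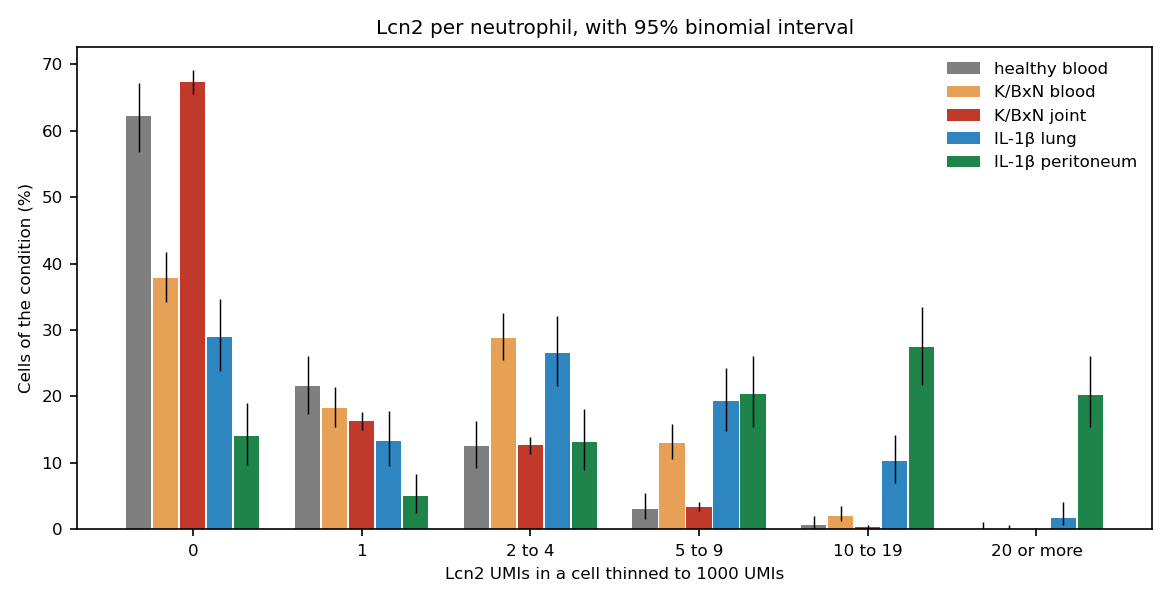
Share of neutrophils (percent of the condition's cells, thinned to 1000 UMIs, mean of 20 draws) in 6 classes of Lcn2 UMI count, with 95% exact binomial intervals for the 5 conditions. IL-1β peritoneum has its tallest bar at 10 to 19 UMIs, where it holds 27.4% of its cells, and the other 4 conditions have theirs at 0, where IL-1β lung holds 28.9% (26.6% at 2 to 4 UMIs).

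By the ImmGen reference class that the authors had given each cell, Lcn2 differed within some classes too. Cells classed as GN.Arth.SynF, named for synovial fluid neutrophils of arthritis, had 830 CPM of Lcn2 in K/BxN joint (2201 cells), 3996 in IL-1β lung (271 cells) and 9462 in IL-1β peritoneum (101 cells). In cells classed as GN.Thio.PC, named for thioglycollate-elicited peritoneal neutrophils, Lcn2 was at 448 CPM in joint (240 cells), 2853 in lung (67 cells) and 14563 in peritoneum (159 cells). In cells of the blood class GN.Bl it was at 823 CPM in healthy blood (353 cells), 2091 in K/BxN blood (653 cells) and 1211 in joint (253 cells). Within GN.UrAc.PC it differed little, at 413 CPM in healthy blood (147 cells), 503 in K/BxN blood (124 cells) and 399 in joint (96 cells). These rested on 40, 43 and 97 Lcn2 UMIs. The order of the sites for Lcn2 was therefore the same in both classes that joint, lung and peritoneum shared.

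By CPM, Ngp and Cd177 were higher at both acute sites, and for Cd177 in peritoneum the ratio was under 2-fold when the cells' own shares were averaged. Ngp had 17.8 CPM in healthy blood (20 UMIs), 64.1 in K/BxN blood (169 UMIs), 15.4 in K/BxN joint (151 UMIs), 234 in IL-1β lung (307 UMIs) and 103 in IL-1β peritoneum (97 UMIs). Its ratio to healthy blood was 13.1 in lung (8.36 to 21.8), 5.80 in peritoneum (3.55 to 9.91) and 3.60 in K/BxN blood (2.26 to 6.04), and 0.862 in joint (0.539 to 1.45), where TMM factors turned it to 1.29. Ngp sat in few cells, since 44 of 367 lung cells held a UMI, the richest 5% of lung cells held 88.3% of them and 1 cell held 83. In peritoneum 20 of 287 cells held a Ngp UMI, the richest 5% held 94.8% of them, and 1 cell held 48 of the 97. With each cell's own share averaged, the ratio of Ngp fell to 5.74 in lung, to 2.18 in peritoneum, to 1.87 in K/BxN blood, which is then below 2-fold, and to 0.496 in joint, which is then counted as lower. Leaving out the 5% of cells richest in the 9 genes picks cells by the genes' own UMIs, and it left 6 of the 20 Ngp UMIs of healthy blood, so that no ratio of Ngp to healthy blood was read from it. With TMM factors the ratio was 24.6 in lung and 11.0 in peritoneum.

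Cd177 had 44.5 CPM in healthy blood, 69.0 in K/BxN blood, 16.4 in K/BxN joint, 270 in IL-1β lung and 127 in IL-1β peritoneum, from 50, 182, 161, 354 and 119 UMIs. It was 6.06-fold higher in lung (4.50 to 8.32) and 2.84-fold higher in peritoneum (2.03 to 4.04) than in healthy blood. With the cells' own shares averaged, the ratio of Cd177 in peritoneum was 1.81, below 2-fold. With TMM factors it was 11.4 in lung and 5.39 in peritoneum. In joint its ratio was 0.368 (0.266 to 0.516), or 0.548 with TMM factors. In K/BxN blood the ratio of Cd177 was 1.55 (1.13 to 2.16), or 2.14 with TMM factors. Unlike Ngp it was spread over many cells, with a UMI in 156 of 367 lung cells. After thinning to 1000 UMIs a Cd177 UMI was seen in 3.83% of healthy blood cells, 6.03% of K/BxN blood, 1.39% of joint, 19.2% of lung (14.8% to 24.3%) and 9.52% of peritoneum (6.07% to 14.1%). For Cd177 the intervals of lung and peritoneum did not overlap.

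Camp, Ltf and Chil3 were near the limit of detection. Camp had 7, 6, 12, 33 and 17 UMIs in healthy blood, K/BxN blood, K/BxN joint, IL-1β lung and IL-1β peritoneum, or 6.23, 2.28, 1.22, 25.1 and 18.1 CPM, and fell short of 50 UMIs in every comparison but that of lung with peritoneum. The lung interval (17.3 to 35.3 CPM) lay above that of healthy blood (2.51 to 12.8 CPM), and that of peritoneum (10.5 to 29.0 CPM) overlapped it. The ratio of Camp in lung to healthy blood was 4.03 by CPM and 1.91 by the mean of the cells' own shares, by which peritoneum and not lung was the highest condition. Chil3 had 12, 11, 41, 51 and 12 UMIs, or 10.7, 4.17, 4.17, 38.9 and 12.8 CPM in the same order. It was 3.64-fold higher in lung than in healthy blood (1.91 to 7.49) and its ratio in joint was 0.390 (0.201 to 0.816), or 0.582 with TMM factors.

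Ltf had few UMIs outside the joint, and its highest level was in the peritoneum. It had 1.78 CPM in healthy blood, 1.90 in K/BxN blood, 8.65 in K/BxN joint, 10.7 in IL-1β lung and 34.1 in IL-1β peritoneum, from 2, 5, 85, 14 and 32 UMIs. The ratio of joint to healthy blood was 4.85, with an interval of 1.30 to 40.7 since healthy blood held 2 UMIs, and that of joint to K/BxN blood was 4.56 (1.88 to 14.4). With the cells' own shares averaged, the ratio of joint to healthy blood was 2.39. The ratio to healthy blood was 5.99 in lung (1.38 to 54.3) and 19.1 in peritoneum (4.88 to 165), but those pairs held fewer than 50 Ltf UMIs, so that Ltf entered the counts of higher genes through the large joint pool alone. The joint UMIs lay in 67 of 2791 cells, of which none held more than 4.

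Chil3 is also a defining product of alveolar macrophages, and the lung lavage held 1 cell of a macrophage class, left out of the values above, with 60 Chil3 UMIs. Among the kept lung cells the list of alveolar macrophage markers had 26 UMIs from 5 of 8 genes (19.8 CPM), and Marco, Ear1 and Krt79 were at 0. In the other 4 conditions the list summed to 10.2 to 34.0 CPM. Siglecf made up 10 of the 26 UMIs in lung and 223 of 334 in joint, so these sums do not compare the content of macrophages. The part of macrophage RNA in the Chil3 level of lung was not tested.

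By CPM, Hp, Pglyrp1 and Anxa1 were not raised 2-fold in any inflamed condition, and with TMM factors Hp was, in peritoneum. Hp had 2126 CPM in healthy blood, 2516 in K/BxN blood, 1113 in K/BxN joint, 2021 in IL-1β lung and 2566 in IL-1β peritoneum. Its ratio to healthy blood ran from 0.523 in joint to 1.21 in peritoneum, and with TMM factors from 0.780 to 2.29. Pglyrp1 had 1562, 1703, 612, 614 and 958 CPM in the same order of conditions, and was lower in joint (0.392-fold, 0.371 to 0.414) and in lung (0.393-fold, 0.361 to 0.428). Anxa1 had 690, 836, 326, 243 and 333 CPM, and was lower in joint (0.473-fold, 0.437 to 0.512), lung (0.352-fold, 0.308 to 0.402) and peritoneum (0.483-fold, 0.422 to 0.551). The ratio of Anxa1 was 0.530 in joint with the cells' own shares averaged and 0.533 in peritoneum without the 5% of cells richest in the 9 genes, both short of 2-fold.

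With TMM factors these ratios of Pglyrp1 and Anxa1 to healthy blood became 0.584 and 0.704 in joint, 0.737 and 0.660 in lung and 1.16 and 0.916 in peritoneum. None of them then reached 2-fold, and Pglyrp1 in peritoneum changed sides. Cells classed as GN.Bl had 1594 CPM of Pglyrp1 in healthy blood and 1002 CPM in joint, and 728 and 531 CPM of Anxa1. Cells classed as GN.UrAc.PC had 1156 CPM of Pglyrp1 in healthy blood and 1037 CPM in joint. Their Anxa1 was at 320 CPM in healthy blood (31 UMIs) and 436 CPM in joint (106 UMIs), and so not lower in joint.

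**Figure D3:**
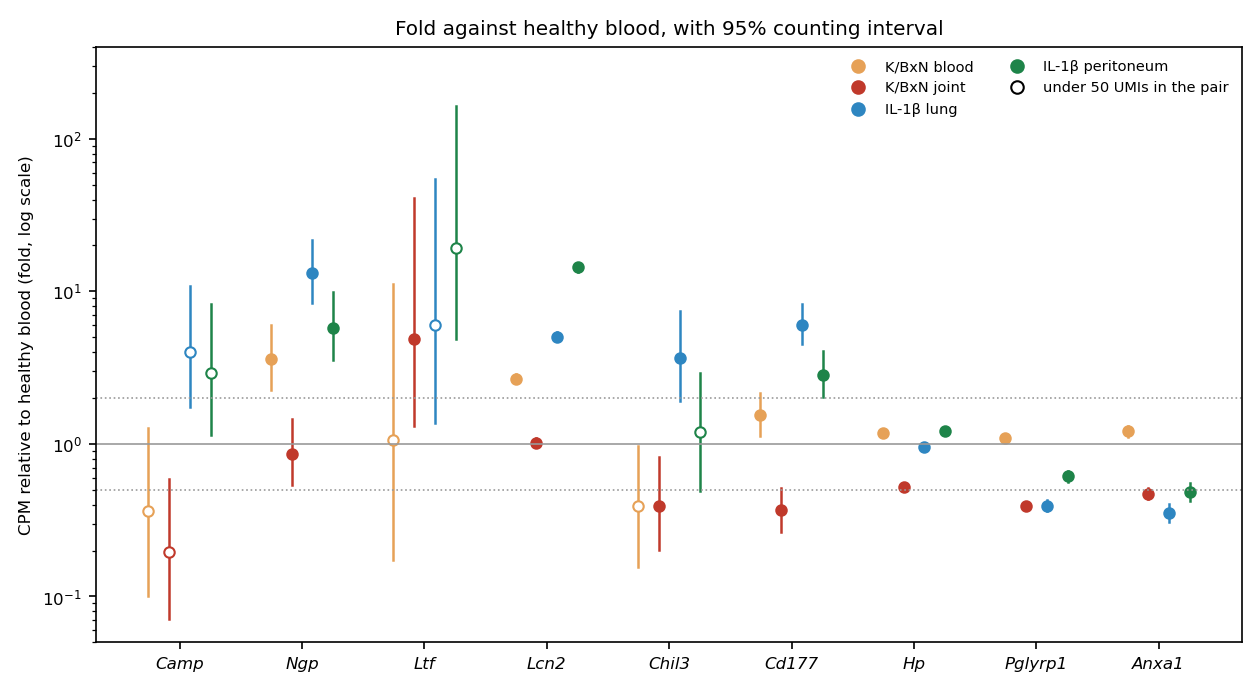
Ratio of each gene's CPM to healthy blood, on a log axis, in the 4 inflamed conditions, with 95% counting intervals (open circles, fewer than 50 UMIs in the pair of conditions, and dotted lines at 2-fold). Ngp, Lcn2 and Cd177 lie above 2-fold at both IL-1β sites (Cd177 in peritoneum is at 1.81 by the mean of the cells' own shares), while Pglyrp1 and Anxa1 lie under 1 in joint, lung and peritoneum (with TMM factors Pglyrp1 in peritoneum does not).

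A scarce gene can reach 50 UMIs through the condition in which it is high or which holds the most cells, so the counts of members over this limit are given as descriptions. Counted over the genes with enough UMIs, K/BxN blood had 2 of 6 genes higher than healthy blood (Ngp and Lcn2) and 0 lower, against 0.694% and 6.28% of all genes. K/BxN joint had 1 of 8 higher (Ltf, with 85 UMIs in joint and 2 in healthy blood) and 4 lower (Chil3, Cd177, Pglyrp1 and Anxa1), against 10.7% and 23.3%. IL-1β lung had 4 of 7 higher (Ngp, Lcn2, Chil3 and Cd177) and 2 lower (Pglyrp1 and Anxa1), against 12.4% and 44.1%.

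IL-1β peritoneum had 3 of 6 genes higher (Ngp, Lcn2 and Cd177) and 1 lower (Anxa1), against 12.2% and 45.5%. By the mean of the cells' own shares 2 of the 6 were higher. With TMM factors the higher genes went from 2 to 3 in K/BxN blood (with Cd177) and from 3 to 4 in peritoneum (with Hp) and stayed at 1 in joint and 4 in lung. The lower genes went from 4 to 0 in joint, from 2 to 0 in lung and from 1 to 0 in peritoneum. Under TMM, 19% of all genes were higher and 6.76% lower in joint, 24.5% and 17.6% in lung, 24.1% and 17.1% in peritoneum and 3.02% and 0.959% in K/BxN blood. These 4 comparisons share healthy blood.

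Joint and blood of the arthritic mice differed in most of the genes. Of 8 genes, 6 were lower in joint (Ngp, Lcn2, Cd177, Hp, Pglyrp1 and Anxa1) and 1 was higher (Ltf), against 8.48% and 14.2% of all genes. The lowest ratios were those of Cd177 at 0.237 (0.191 to 0.295) and Ngp at 0.240 (0.191 to 0.300). Lcn2 (0.380, 0.367 to 0.393), Pglyrp1 (0.360, 0.346 to 0.374), Anxa1 (0.390, 0.369 to 0.412) and Hp (0.442, 0.429 to 0.456) followed. Chil3 was at 1.00 (0.505 to 2.16), and at 0.461 with the cells' own shares averaged. The 7 calls were the same with TMM factors. The pools differed in ImmGen class, with 653 K/BxN blood cells in GN.Bl and 2201 joint cells in GN.Arth.SynF. Within GN.Bl, CPM in K/BxN blood and joint were 2563 and 2189 for Hp, 2091 and 1211 for Lcn2. They were 1703 and 1002 for Pglyrp1 and 840 and 531 for Anxa1, all short of 2-fold. Ngp (45.2 and 17.7 CPM) and Cd177 (61.2 and 28.7 CPM) stayed past 2-fold there. The part of class in the calls was not tested.

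The 2 acute sites differed from each other gene by gene. Ngp was 2.27-fold (1.80 to 2.88), Cd177 2.13-fold (1.73 to 2.64) and Chil3 3.04-fold (1.60 to 6.27) higher in lung than in peritoneum, and Lcn2 was 2.86-fold higher in peritoneum than in lung (2.76 to 2.95). With the cells' own shares averaged, the ratio of Ngp was 2.63. Leaving out the 5% of cells richest in the 9 genes left 176 of 307 Ngp UMIs in lung and 97 of 97 in peritoneum. The ratio of Ngp was then 1.33, below 2-fold, but this choice of cells by the genes' own UMIs lowered the lung side alone. By CPM, 3 of 8 genes were higher in lung than in peritoneum and 1 was lower, against 8.04% and 7.32% of all genes. Ltf, at 14 and 32 UMIs, was under the count limit for this pair.

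Detection of several of the genes in 1 cell followed the abundant ones. After thinning to 1000 UMIs, 3 or more of the 9 genes were seen in 47.3% of healthy blood cells (41.9% to 52.5%), 67.2% of K/BxN blood (63.5% to 70.8%), 18.3% of K/BxN joint (16.8% to 19.8%), 40.9% of IL-1β lung (35.2% to 46.9%) and 52.3% of IL-1β peritoneum (45.7% to 59.0%). K/BxN blood was thus the highest and K/BxN joint the lowest, with intervals apart from the other 3. Cells with none of the 9 made up 18.5% of joint and 0.719% to 3.67% of the other conditions. These shares used 354, 668, 2673, 286 and 231 cells, and without thinning those with 3 or more were 61.7%, 83.4%, 55.2%, 64.6% and 70.7% in the same order.

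**Figure D4:**
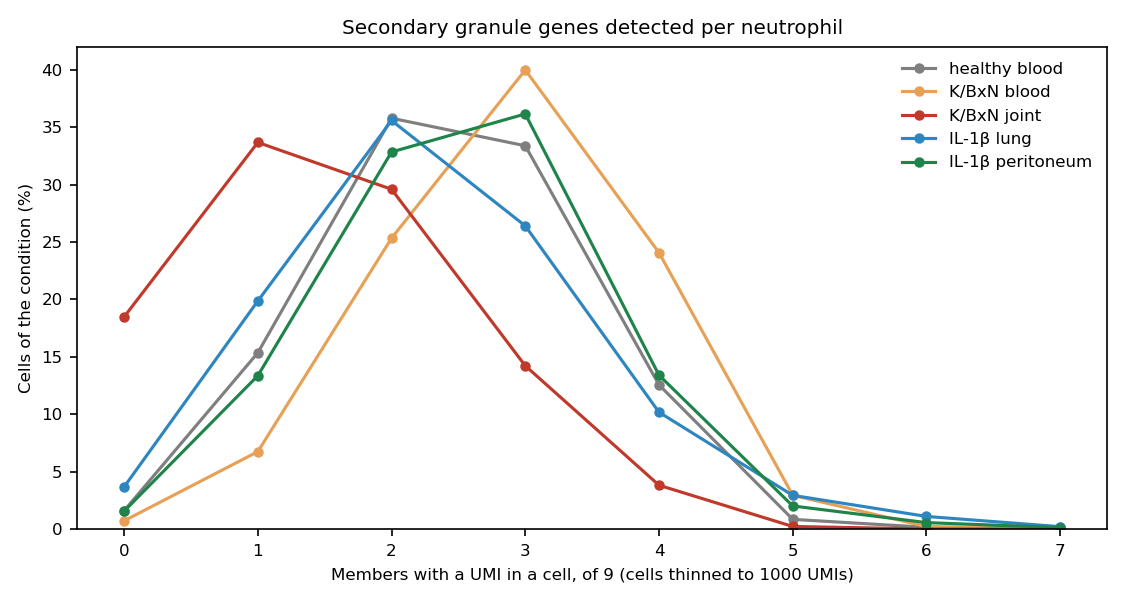
Share of neutrophils (percent of the condition's cells) by the number of the 9 genes with a UMI in a cell thinned to 1000 UMIs, as the mean of 20 draws, 1 line per condition. The K/BxN joint line peaks at 1 gene and the K/BxN blood line at 3 genes.

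The scarce genes gave another order. At least 1 of Camp, Ngp, Ltf, Chil3 and Cd177 was seen in 5.40% of healthy blood cells (3.26% to 8.25%), 10.5% of K/BxN blood (8.26% to 13.1%), 3.86% of K/BxN joint (3.16% to 4.65%), 26.1% of IL-1β lung (21.2% to 31.7%) and 16.2% of IL-1β peritoneum (11.9% to 21.9%). At least 2 of the 5 were seen in 4.58% of lung cells (2.44% to 7.65%) and in 0.0711% to 1.34% of the other conditions. At 500 UMIs, a depth shared by all libraries, at least 2 of the 5 were seen in 82.4% (run 1) and 74.2% (run 2) of bone marrow neutrophils. Spleen gave 61.9% and 4.43%, and blood 14.4% and 1.64%. In the inflammation library the same share lay between 0.0251% in joint and 2.13% in lung. Free RNA was not corrected, and at this depth B-cell-like cells of the run 2 marrow held a Camp UMI in 40.1% and a Ngp UMI in 43.4%. Its part in these shares was not tested. All 5 were seen together in up to 9.56% of cells in the reference libraries and in 0 of the 4752 cells of the inflammation library, which allows a share of up to 0.0631%.

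Some cells held more than 1 of the scarcest genes. In lung, 3.65 cells (mean of 20 draws) held Camp and 21.4 held Ngp, and 3.00 held both, where independence would give 0.273. In healthy blood 2.50 cells held Camp, 3.30 held Ngp and 1.90 held both. In K/BxN blood 1.90 cells held Camp and 28.4 held Ngp, but only 0.25 held both, so the 2 genes lay mostly in different cells there. Ngp and Cd177 shared 8.50 lung cells, where independence would give 4.10. These are handfuls of cells and are given as descriptions.

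Among pairs of genes with at least 5 cells expected by independence, 70 in all, the ratio of observed to expected cells had a median of 1.06 and ran from 0.633 for Ltf with Lcn2 in joint to 2.05 for Ngp with Lcn2 in joint. These were 5.05 cells against 7.98 by independence for Ltf with Lcn2, and 19.2 against 9.35 for Ngp with Lcn2. For Ltf with Hp in joint the ratio was 0.649. The abundant genes Lcn2, Hp, Pglyrp1 and Anxa1 had ratios from 0.990 to 1.18 among themselves in the 5 conditions.

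The other genes of the granule programme did not move as a block. Primary granules are filled first, and the transcripts of their enzymes Mpo, Elane and Ctsg and of Bpi had 0 UMIs in all 5 conditions, which allows up to 0.305 CPM in joint and 3.19 CPM in peritoneum. Of the 7 genes of that list 2 had enough UMIs, the granule proteoglycan Srgn and the membrane protein Cd63, and both were higher in joint than in healthy blood (2 of 2, against 10.7% of all genes). Srgn was also higher in lung and peritoneum (1 of 2 in each, against 12.4% and 12.2%), and with TMM factors Cd63 was higher in lung too. Srgn had 2847 CPM in healthy blood, 3220 in K/BxN blood, 11409 in K/BxN joint, 18509 in IL-1β lung and 12373 in IL-1β peritoneum.

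Of 12 other genes of specific granules, 9 had enough UMIs in each comparison with healthy blood. None was higher in joint and 2 were lower there (the oxidase subunit Cybb and the collagenase Mmp8), 1 was higher in lung (the formyl peptide receptor Fpr1) with 2 lower (Lyz2 and Slpi), and 2 were higher in peritoneum (Fpr1 and Cybb) with 1 lower (Slpi). All genes called higher and lower were 10.7% and 23.3% in joint, 12.4% and 44.1% in lung and 12.2% and 45.5% in peritoneum. With TMM factors the counts were 2 higher (Fpr1 and Tcn2) and 1 lower (Cybb) in joint, 4 higher (Cybb, Mmp8, Fpr1 and Tcn2) and 0 lower in lung, and 3 higher (Cybb, Mmp8 and Fpr1) and 0 lower in peritoneum. Under TMM the shares of all genes higher and lower were 19% and 6.76% in joint, 24.5% and 17.6% in lung and 24.1% and 17.1% in peritoneum, and these shares hold for the TMM counts of each list. Cybb had 121 CPM in healthy blood, 63.0 in K/BxN blood, 25.8 in joint, 146 in lung and 366 in peritoneum. The median ratio of these tested genes to healthy blood was 0.865 in joint, 0.869 in lung and 0.864 in peritoneum.

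Of 5 gelatinase granule genes, 3 or 4 had enough UMIs. The metalloproteinase Adam8 was higher in joint (2.80-fold) and lung (2.80-fold), Slc11a1 was higher in peritoneum (2.21-fold), and the gelatinase Mmp9 was lower in lung (0.242-fold) and peritoneum (0.294-fold). The genes of this list called higher were 1 of 4 in joint and 1 of 3 in lung and in peritoneum, against 10.7%, 12.4% and 12.2% of all genes. The 1 of 3 called lower in lung and in peritoneum stood against 44.1% and 45.5% of all genes. With TMM factors Slc11a1 was higher in joint and lung too, and Mmp9 was no longer 2-fold lower in peritoneum. Mmp9 had 2421 CPM in healthy blood, 586 in lung and 711 in peritoneum.

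Among regulators of granule genes, 7 were listed, 6 were in the tables and Cebpd was not analysed here. Cebpe, which drives the specific granule genes during maturation, had 42.7 CPM in healthy blood and 25.0, 18.3, 6.10 and 8.51 CPM in K/BxN blood, joint, lung and peritoneum, from 48, 66, 180, 8 and 8 UMIs. Cebpb, active in stress and inflammation, had 1127 CPM in healthy blood, 1674 in K/BxN blood, 6294 in joint, 5716 in lung and 4332 in peritoneum. Cebpb was thus more than 3-fold higher in joint, lung and peritoneum than in healthy blood. Against healthy blood Cebpb and Runx1 were higher in joint (2 of 5 tested regulators, against 10.7% of all genes), lung (2 of 4, against 12.4%) and peritoneum (2 of 4, against 12.2%). Lower were Cebpe and Cebpa in joint, Cebpe and Spi1 in lung and Cebpe in peritoneum, against 23.3%, 44.1% and 45.5% of all genes. With TMM factors Cebpb was also higher in K/BxN blood (against 3.02% of all genes), Cebpe in joint and Spi1 in lung were no longer 2-fold lower, and the other calls of this list against healthy blood stayed.

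Across the 11 pools of the series, the genes whose log2 level followed the mean of the 9 most closely among 2019 candidates were Serpinb1a (Pearson r = 0.959), Adpgk (0.955), Triobp (0.940), Gyg (0.925) and Cybb (0.922). Serpinb1a, an inhibitor of neutrophil serine proteases, had 11.6 CPM in healthy blood, 48.8 in lung and 491 in the bone marrow of run 1. These 11 pools share libraries, chemistry and mice within a run, and no p is given. Of the members themselves Hp (-0.048), Pglyrp1 (0.319) and Anxa1 (0.479) followed the mean weakly, so it is not a pattern that all 9 share. The 5 conditions of the inflammation library were too few for a correlation of their own.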

How the data were processed

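The authors sorted and captured the cells with 10X Genomics reagents and deposited UMI counts for each gene and cell, made with Cell Ranger on mm10, before their own filters. For the inflammation library they also deposited a table of hashtag singlets with each cell's condition and ImmGen class. The labels and the study's methods name different reagent versions and sequencing instruments. The 9 genes, the other gene lists and the tests were chosen with earlier results of these data known.

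In the inflammation library, hashtag singlets with a granulocyte (GN) class were used. In the healthy libraries, cells were clustered without the 9 genes (2000 variable genes, 30 principal components, 15 neighbours, Leiden resolution 2, scanpy 1.11.5 and leidenalg 0.10.2 in Python 3.11.15), and clusters were called neutrophil-like from fixed markers. Cells over 5% mitochondrial UMIs or outside 280 to 1825 genes (the 1st and 99th percentiles) were left out, which kept 4752 inflammation and 12311 healthy cells. Healthy cells were not screened with a doublet caller, hashtag doublets had been removed by the authors, and free RNA was not corrected. Pairs of libraries shared 0 to 36 cell barcodes. Kept UMIs per pool ranged from 939662 to 9830814.

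Counts were summed per pool and given as CPM over all genes, with exact Poisson and conditional ratio intervals. Shares of cells were taken as the mean of 20 random draws of 1000 UMIs per cell (500 where healthy libraries entered), without shallower cells, with exact binomial (Clopper-Pearson) intervals. All intervals and limits cover counting error only, and a count of 0 was given a limit of 3 counts. The likeness of genes was Pearson's r on log2(CPM + 10) over genes reaching 100 CPM in a pool. Genes were named by being members, by the fixed lists, or as the 5 most alike.

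Healthy tissues were compared with edgeR 4.0.16 (R 4.3.3), with a quasi-likelihood test, TMM scaling, the filterByExpr filter and run as the blocking term, at an FDR of 0.05 with 2 residual degrees of freedom. The methods state that the same mice gave the 3 tissues within each run, and deviations from tissue means within a run correlated at 0.569 to 0.664 over 7474 genes. P-values rest on 2 pools per tissue. In simulated counts for bone marrow against blood (6979 genes), 50% of 2-fold and 98% of 4-fold changes were recovered. DESeq2 1.42.0, other scalings, cell filters and depths and the leaving out of each library were tried as alternatives. The promoter table held 8 of the 9 genes, and the parts of its windows outside exons of the gene annotation were used for printing.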

Additional observations from a re-analysis of the deposited data

Results flagged for a closer look

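Between bone marrow and spleen, 5 of the genes had ratios on opposite sides of 1 in the 2 runs, with intervals that left out 1 but cover counting error alone. The ratio of marrow to spleen in run 1 was 0.869 for Ngp, 0.902 for Ltf, 0.951 for Lcn2, 0.949 for Pglyrp1 and 0.951 for Anxa1. In run 2 it was 4.14 for Ngp, 4.37 for Ltf, 3.13 for Lcn2, 1.53 for Pglyrp1 and 1.94 for Anxa1. For Chil3 the ratio was 0.977 in run 1, with an interval of 0.949 to 1.01, and 3.17 in run 2. The run 1 ratios of Lcn2, Pglyrp1 and Anxa1 lay close to 1, and with 1 pool per tissue and run the spread between pools was not measured, so that a direction in run 1 and a difference between the runs were not tested.

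In IL-1β lung, the single cell of a macrophage class, which entered no comparison, held 60 Chil3 UMIs, where the 367 kept neutrophils together held 51.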

How the results depend on the processing

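Of 96 recounts of genes past 2-fold in the inflammation library 87 stayed within 1.5 times the original count. Some settings, such as all hashtag singlets and CPM without the members, left the ratios almost unchanged and could hardly move a count. With the mean of the cells' own shares 1 gene was higher in K/BxN blood than in healthy blood. TMM factors left 0 lower genes in K/BxN joint, IL-1β lung and IL-1β peritoneum. Without the 5% of cells richest in the members, the recount of genes higher in joint was 2. It held Ltf and also Ngp, whose 6 UMIs left in healthy blood were too few for its ratio to be read as a result. In the same setting 0 genes were lower in peritoneum, and Camp in K/BxN blood against healthy blood gave no ratio. At 1.5-fold 2 genes were lower in peritoneum than in healthy blood and 2 lower in lung than in peritoneum, and the latter count was also 2 with all GN cells. The cause of these differences was not tested. The share of cells with 3 or more of the genes changed with the depth and with the shallower cells that each depth left out. In healthy blood, K/BxN blood, joint, lung and peritoneum in turn it was 16.2%, 31.1%, 6.40%, 17.2% and 23.6% at 500 UMIs, 75.9%, 90.3%, 39.0%, 66.6% and 76.5% at 2000 UMIs and 61.7%, 83.4%, 55.2%, 64.6% and 70.7% without thinning.

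In the healthy libraries, the 7 genes called higher in marrow than in blood fell to 0 without the replicate block, that is without the pairing by run, and to 0 with all deposited cells. Leaving out 1 library gave 0 to 8 (0% to 16% of all genes called higher), with 0 without either blood library. For spleen against blood the calls were 0, 2 without the filter on low counts (0.173% of all genes called higher) and 0 to 8 when 1 library was left out (5 without either marrow library, at 0.806% and 0.729% of all genes, and 8 without the spleen of run 2, at 6.03%). For marrow against spleen they were 0, 1 with DESeq2 (1.1%) and 0 to 6 when 1 library was left out (6 without the marrow of run 1, at 2.75%, and 4 without the spleen of run 1, at 4.1%). A tissue left with 1 pool is assumed to vary like the others. The range of adjusted p over alternatives was 5.19e-07 to 0.213 for Chil3 and 2.19e-06 to 0.410 for Camp in marrow against blood. Each inflamed condition was 1 pool, so differences between mice were not measured, and Camp, Ltf and Chil3 had few UMIs.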
